A study of Homo sapiens with 12 samples.

Results

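Spheroid xenografts of NCI-H1299 cells were compared with the parental culture from which the spheroids were started, a comparison that spans the change of medium, the growth as floating spheres and the growth as a tumour together. NCI-H1299 is an established line of human lung cancer of the non-small cell kind. The 6 samples are 3 of 12 titled as spheroid xenografts and 3 titled as cultured parental cells, and the other 6 are spheroid culture and parental xenografts, 3 each. RNA of each sample was read on 1 Affymetrix HG-U133 Plus 2.0 array, and 19775 genes were represented by 1 probe set each.

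The spheroid xenografts are labelled as xenografted spheroid cells, with stem-cell medium as their medium. Spheroids were made by moving adherent cells into that medium for 7 to 10 days and collecting the floating cells into flasks with a surface that hinders attachment. The parental culture is the untreated line in medium with serum. All samples derive from 1 line, so nothing here separates this line from other lung cancers. The labels used here name neither the host animal nor the site of grafting or the number of animals. The titles call the samples biological replicates, with no word on separate cultures or animals. The p-values therefore measure only the spread among these 6 samples, and some of that spread may be technical. The medium, the floating growth and the growth in an animal differ together between the groups and cannot be told apart in this comparison.

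Floating growth in serum-free medium selects cells that survive without attachment, and such cultures are used to enrich for cells with properties of stem cells. In a tumour, cells meet matrix, a blood supply with uneven oxygen, and signals from host cells such as interferons. In bulk RNA a lower level of a gene in fewer cells and less RNA of it per cell cannot be told apart.

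Parental culture replicates 1 and 2 stood apart in some array measures, though replicate 2 did not in those of GAPDH and actin. Whether this reflects RNA quality or hybridisation is not recorded in the labels. The probe set at the 5′ end of 18S ribosomal RNA read 12.93 to 13.20 in log2 units in spheroid xenografts, against 6.96, 10.50 and 13.34 on parental culture replicates 1, 2 and 3. The difference between the 3′ and 5′ probe sets of GAPDH, which grows as RNA degrades, was 0.49 on parental culture replicate 1 and 0.026 to 0.13 on the other 5 arrays. The same difference for actin did not set the groups apart, at 0.23, 0.31 and 0.64 in spheroid xenografts, against 0.78, 0.38 and 0.25 in parental culture. Parental culture replicate 2 correlated best with parental xenograft replicate 3 (r = 0.975), an array of another group. Parental xenograft replicate 3 in turn correlated best with spheroid xenograft replicate 3 (r = 0.986). These arrays had wide interquartile ranges, at 3.44 on parental culture replicate 2, 3.29 on parental xenograft replicate 3 and 3.23 on spheroid xenograft replicate 3. The rest of the series had 2.82 to 3.07, so this trait cut across the groups. The median SD per gene was 0.16 over the 3 spheroid xenografts and 0.32 over the 3 parental cultures. The part of these quality values in the results was not tested, and counts without each array are given beside the results that rest on them.

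In all, 568 of 19775 genes differed between spheroid xenografts and parental culture at a Benjamini-Hochberg adjusted p under 0.05 in limma, or 2.87% of the genes tested. Of these, 291 were higher in spheroid xenografts (1.47%) and 277 were lower (1.4%). A change of at least 2-fold was seen for 231 of the higher genes (1.17% of all tested) and 245 of the lower (1.24%). The median difference over all genes was 0.013 in log2 units. The 3 values of one group lay wholly above or below the 3 of the other for 3813 genes (19.3%), 2165 of them higher and 1648 lower. The number of calls depended on single arrays. It was 135, 39 and 67 without spheroid xenograft replicates 1, 2 and 3, and 713, 2261 and 117 without parental culture replicates 1, 2 and 3. Without both parental culture replicates 1 and 2, 1501 genes were called, 510 of them among the 568. There were 34 genes called with any 1 array left out, and 21 called under all 17 alternatives, among them HBE1, MFAP5, ANK3, SLCO1B3, FLRT2, IL13RA2, TGFA, DSG2, ADM and BST2.

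**Figure D1:**
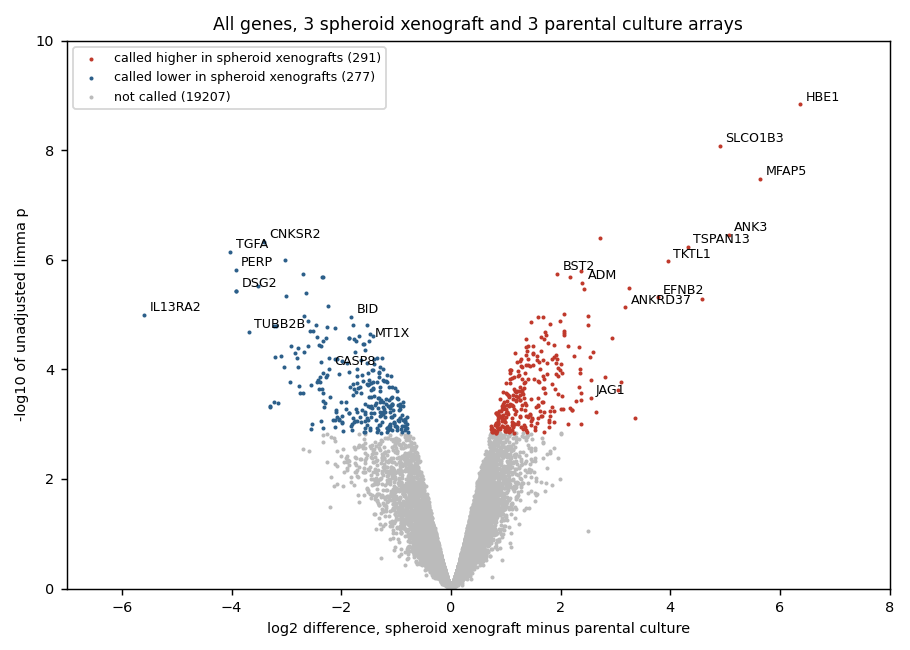
Each point is 1 of 19775 genes; the horizontal axis is the log2 difference, spheroid xenograft minus parental culture, and the vertical axis is minus log10 of the unadjusted limma p. Coloured points are the 291 genes called higher and the 277 called lower, and the labelled genes include the extremes HBE1 (6.36) and IL13RA2 (-5.59).

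The gene with the largest increase in spheroid xenografts was HBE1, the epsilon globin chain of embryonic haemoglobin. Its representative probe set read 11.61, 11.22 and 11.80 in spheroid xenografts, against 5.35, 5.10 and 5.10 in parental culture, in log2 units, and it rose by 6.36 (SE 0.20, limma adjusted p = 2.88e-05). The groups lay more than 5 log2 units apart on every pair of arrays. A second HBE1 probe set differed by -0.18, so the increase rests on 1 of 2 probe sets.
Of the 14 genes with the largest increase, MFAP5, EDIL3, FLRT2 and FERMT1 act in the matrix or in cell adhesion. MFAP5, a microfibril protein of elastic matrix, read 10.75, 11.51 and 10.96 in spheroid xenografts, against 5.82, 5.41 and 5.10 in parental culture, an increase of 5.63 (SE 0.26, limma adjusted p = 0.00022). EDIL3, a secreted protein that binds integrins, read 10.33, 8.05 and 10.34 in spheroid xenografts, against 6.02, 6.97 and 5.68 in parental culture, and rose by 3.35 (SE 0.63), with a wide spread in the tumours. FLRT2, a membrane protein with leucine-rich repeats that mediates adhesion, read 10.30, 11.02 and 10.46 in spheroid xenografts, against 6.59, 6.44 and 5.02 in parental culture, and rose by 4.58 (SE 0.42). FERMT1, or kindlin-1, which activates integrins, read 12.05, 12.20 and 12.68 in spheroid xenografts, against 9.34, 9.34 and 8.53 in parental culture, and rose by 3.24 (SE 0.28).
ANK3, SLCO1B3 and TSPAN13 act at the cell membrane. ANK3, or ankyrin-G, which ties membrane proteins to the spectrin skeleton, read 10.47, 10.90 and 11.17 in spheroid xenografts, against 6.08, 6.17 and 5.09 in parental culture, and rose by 5.07 (SE 0.32, limma adjusted p = 0.00156). SLCO1B3, an organic anion transporter best known from liver cells, read 9.79, 10.14 and 10.17 in spheroid xenografts, against 5.39, 4.99 and 5.03 in parental culture, and rose by 4.90 (SE 0.19). TSPAN13, a tetraspanin, read 12.40, 12.61 and 12.56 in spheroid xenografts, against 8.58, 8.53 and 7.50 in parental culture, and rose by 4.32 (SE 0.29). In all of these genes the lowest tumour array lay above the highest culture array.
EFNB2, or ephrin-B2, a ligand of Eph receptors with roles in vessel formation, read 10.93, 11.47 and 12.07 in spheroid xenografts, against 7.73, 8.20 and 7.24 in parental culture, and rose by 3.77 (SE 0.34). TKTL1, a transketolase-like enzyme also expressed in testis, read 10.04, 9.41 and 10.03 in spheroid xenografts, against 6.42, 5.47 and 5.72 in parental culture, and rose by 3.95 (SE 0.29). ANKRD37, an ankyrin repeat protein induced by low oxygen, read 8.16, 8.86 and 9.32 in spheroid xenografts, against 5.30, 5.84 and 5.67 in parental culture, and rose by 3.18 (SE 0.30). The other 3 genes of the top 14 were STYK1, a kinase-like membrane protein, with a rise of 3.10 (SE 0.46), PLD5, of the phospholipase D family, with 3.05 (SE 0.48), and TMEM45A, a membrane protein, with 2.93 (SE 0.33). The adjusted p of the 14 ranged from 2.88e-05 for HBE1 to 0.0362 for EDIL3. Of the 14, 13, 11 and 11 were kept without spheroid xenograft replicates 1, 2 and 3 in turn, and 13, 14 and 10 without parental culture replicates 1, 2 and 3, with adjusted p-values of up to 0.162. Centring each array on its median ended the call of EDIL3.

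**Figure D2:**
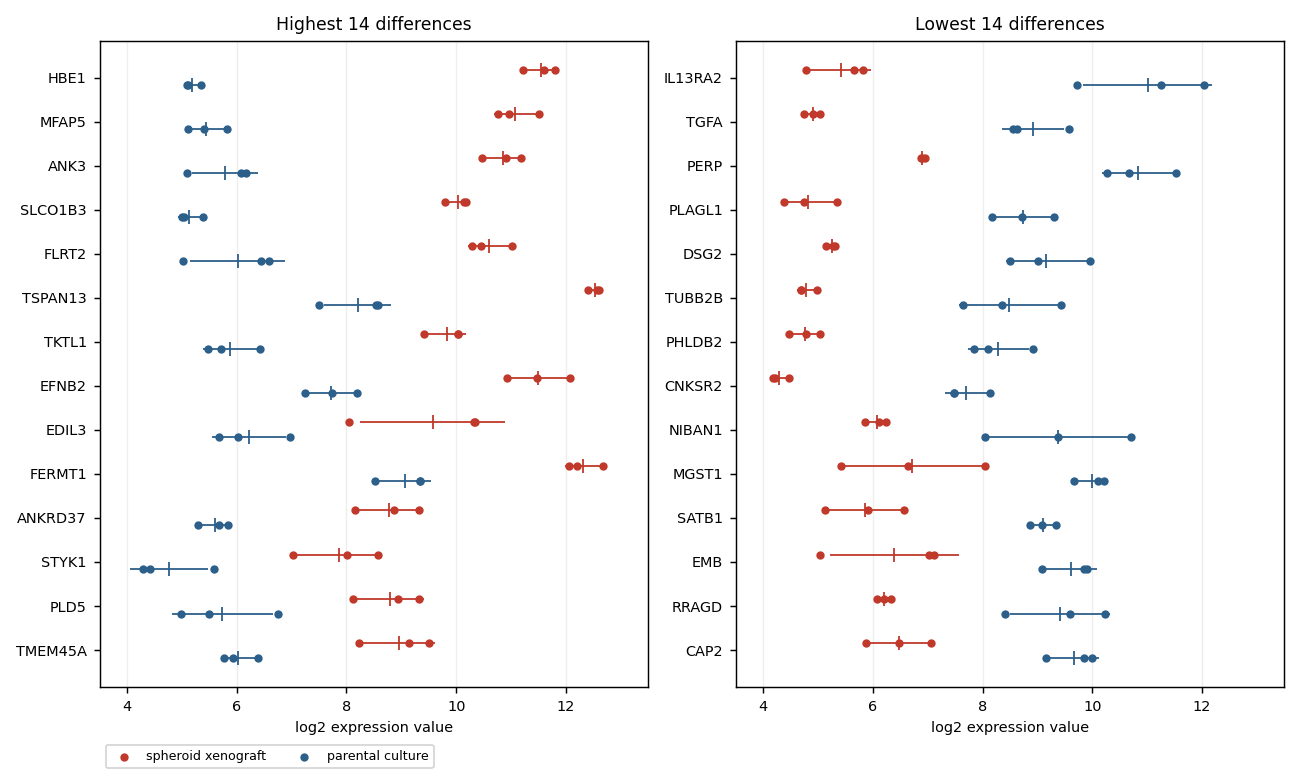
Log2 values on each of the 6 arrays for the 14 genes with the largest increase and the 14 with the largest decrease, spheroid xenograft above parental culture for each gene; dots are arrays, ticks are group means and bars are SD over 3 arrays. The 3 dots of one group do not overlap those of the other for any of the 28 genes, which their selection required.

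The gene with the largest decrease was IL13RA2, a receptor that binds interleukin-13 without full signalling. It read 4.78, 5.65 and 5.82 in spheroid xenografts, against 9.72, 12.04 and 11.26 in parental culture, and fell by 5.59 (SE 0.56, limma adjusted p = 0.00606). TGFA, a ligand of the EGF receptor, read 4.75, 5.03 and 4.92 in spheroid xenografts, against 8.56, 9.57 and 8.63 in parental culture, and fell by 4.02 (SE 0.28, limma adjusted p = 0.00175). In both genes every tumour array lay below every culture array.
Of desmosomes, the junctions that rivet neighbouring cells together, the 14 held DSG2 and PERP. DSG2, a cadherin of desmosomes, read 5.32, 5.15 and 5.27 in spheroid xenografts, against 8.51, 9.96 and 9.00 in parental culture, and fell by 3.91 (SE 0.34). PERP, a desmosome-associated membrane protein, read 6.89, 6.88 and 6.94 in spheroid xenografts, against 10.27, 11.53 and 10.67 in parental culture, and fell by 3.92 (SE 0.30).
Regulators of transcription were PLAGL1, a zinc finger protein from an imprinted locus, and SATB1, which organises chromatin. PLAGL1 read 4.38, 4.74 and 5.34 in spheroid xenografts, against 8.73, 9.30 and 8.17 in parental culture, and fell by 3.91 (SE 0.34). SATB1 read 5.90, 5.12 and 6.56 in spheroid xenografts, against 8.87, 9.34 and 9.08 in parental culture, and fell by 3.23 (SE 0.34).
Cytoskeletal and scaffold genes formed a further group. TUBB2B, a beta tubulin best known from neurons, read 4.69, 4.69 and 4.99 in spheroid xenografts, against 7.64, 9.43 and 8.35 in parental culture, and fell by 3.69 (SE 0.41). CNKSR2, a scaffold of Ras signalling found at neuronal synapses, read 4.18, 4.22 and 4.48 in spheroid xenografts, against 7.47, 8.14 and 7.48 in parental culture, and fell by 3.41 (SE 0.23). PHLDB2, which helps to anchor microtubules at the cell cortex, fell by 3.52 (SE 0.30), and CAP2, an actin-binding protein, fell by 3.20 (SE 0.34). Other PHLDB2 probe sets differed by only -0.61 to 0.11.
The remaining genes of the 14 act in metabolism and stress. MGST1, a microsomal glutathione transferase, read 8.05, 6.64 and 5.42 in spheroid xenografts, against 9.66, 10.11 and 10.22 in parental culture, and fell by 3.29 (SE 0.58), with the tumour arrays spread widely. EMB, or embigin, a partner of lactate transporters, fell by 3.22 (SE 0.54). RRAGD, a GTPase that passes amino acid signals to mTORC1, fell by 3.21 (SE 0.41), and NIBAN1, a stress-induced protein, fell by 3.30 (SE 0.57). The adjusted p of the 14 ranged from 0.00156 for CNKSR2 to 0.0289 for MGST1. Of the 14, 11, 9 and 10 were kept without spheroid xenograft replicates 1, 2 and 3 in turn, and 14, 14 and 11 without parental culture replicates 1, 2 and 3, with adjusted p-values of up to 0.151. The calls of PERP, PHLDB2, MGST1 and SATB1 ended when probe sets with the suffixes _x_at and _s_at, which can match several transcripts, were left out, and those of NIBAN1, MGST1 and EMB ended under median centring.

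The levels of these genes in the other 2 groups place them along the path between culture and tumour, given here as means ± SD of 3 arrays and as a description only. HBE1 was at 11.54 ± 0.30 in spheroid xenografts, 11.77 ± 0.82 in parental xenografts, 5.21 ± 0.66 in spheroid culture and 5.18 ± 0.14 in parental culture, high in both kinds of tumour and low in both cultures. EDIL3 was likewise higher in both kinds of tumour, at 9.57 ± 1.32 in spheroid xenografts, 10.56 ± 0.87 in parental xenografts, 5.73 ± 1.30 in spheroid culture and 6.22 ± 0.67 in parental culture. MFAP5 instead was at 11.08 ± 0.39 in spheroid xenografts, 7.55 ± 2.28 in parental xenografts, 11.17 ± 1.05 in spheroid culture and 5.44 ± 0.36 in parental culture, so that spheroid culture lay close to spheroid xenografts. PLD5 was at 8.79 ± 0.62 in spheroid xenografts, 5.62 ± 0.093 in parental xenografts, 9.34 ± 0.96 in spheroid culture and 5.74 ± 0.91 in parental culture, with both spheroid groups above both parental groups. TUBB2B was at 4.79 ± 0.17 in spheroid xenografts, 5.07 ± 0.22 in parental xenografts, 5.38 ± 0.74 in spheroid culture and 8.48 ± 0.90 in parental culture, so that parental culture alone was high. All of the 14 genes with the largest decrease, other than SATB1, CAP2 and EMB, had their highest mean in parental culture. The choice of genes lower than in parental culture favours this. SATB1 was at 5.86 ± 0.72 in spheroid xenografts, 9.77 ± 0.30 in parental xenografts, 7.33 ± 1.46 in spheroid culture and 9.10 ± 0.23 in parental culture, and CAP2 at 6.47 ± 0.60 in spheroid xenografts, 10.01 ± 0.55 in parental xenografts, 7.44 ± 1.01 in spheroid culture and 9.67 ± 0.45 in parental culture. In these 2 genes the parental tumours were as high as parental culture or higher, and the spheroid tumours were lowest. The spread in the other 2 groups was wide for several genes, with an SD of 2.28 for MFAP5 in parental xenografts and 2.61 for TKTL1 there.

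**Figure D3:**
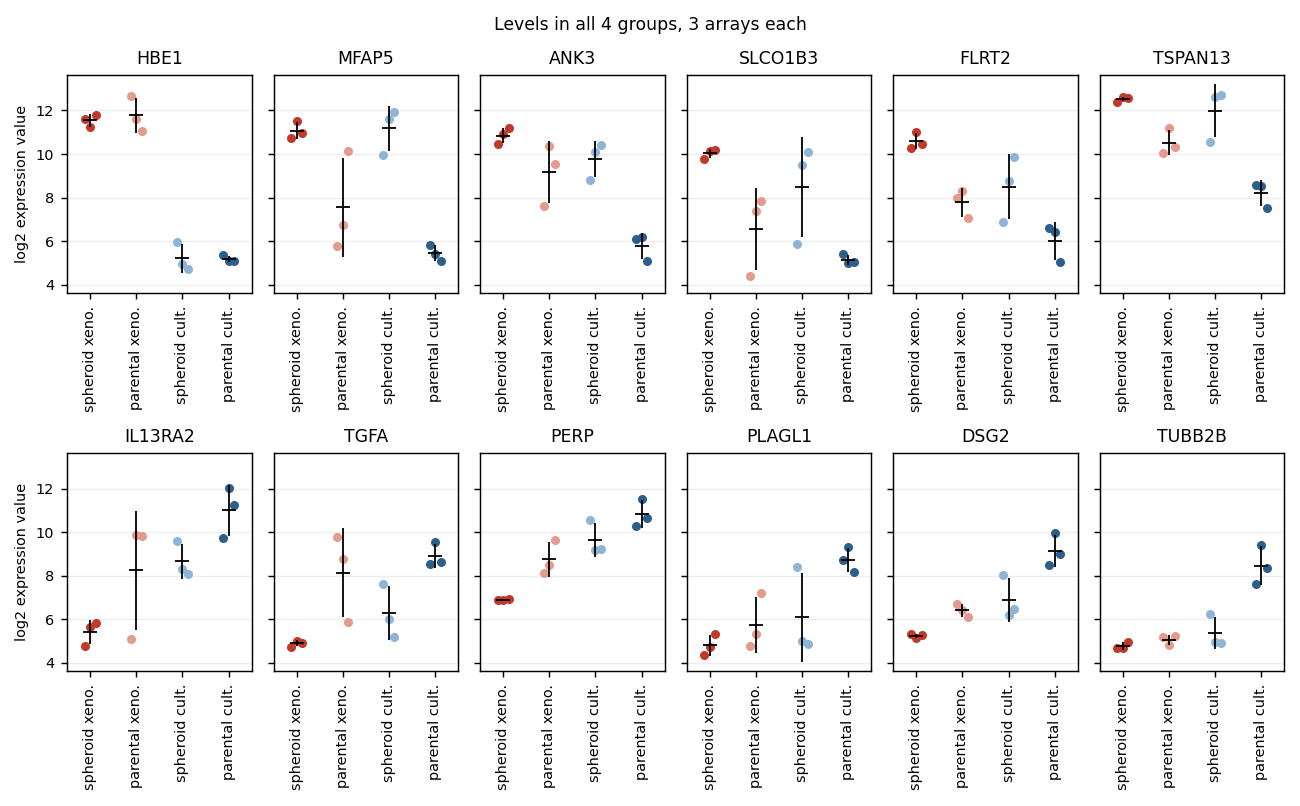
Log2 values of the 6 genes with the largest increase (top) and the 6 with the largest decrease (bottom) in the 4 groups of the series; dots are arrays, ticks are means and bars are SD over 3 arrays, and only spheroid xenograft and parental culture were tested against each other. HBE1 averages 11.54 and 11.77 in the spheroid and parental tumours, against 5.21 and 5.18 in the spheroid and parental cultures, and MFAP5 averages 11.08 in spheroid xenografts and 11.17 in spheroid culture.

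Among interferon-stimulated genes, BST2, IFIT1, IFI6, ISG15, MX1 and IRF9 rose in spheroid xenografts. Such genes respond to interferons through a response element with repeated GAAA in their promoters. Of 25 measured, 6 rose, or 24% of the list against 1.47% of all genes called higher, and the list's median difference was 0.41 against 0.013 over all genes. For each list from here on, the share of its members called is given in brackets against the 2.87% called over all genes. The lists and members were chosen with earlier results of these data known, so the shares, including this 24%, are a description and not independent support. The element, searched on both strands as GAAA, any 2 bases and GAAA, lies in the 250 bases before the RefSeq start of 4 of the 6 risen genes and of 14 of the 19 members with a promoter in the table, against 3.07% of 27305 promoters. The list was made of interferon-stimulated genes, so this excess does not bear on which members rose. The uncalled members IFIT3, IFI44L and IFI27 hold 2 matches each, at differences of -0.15, 0.16 and 0.04. To show what these promoters share, the 3 of these genes with the largest differences are shown 5′ to 3′ on the gene's strand with matches in capitals, GRCh38.p14: BST2 at chr19:17405631-17405880 on the minus strand, IFIT1 at chr10:89392373-89392622 on the plus strand, and IFI6 at chr1:27672193-27672442 on the minus strand. Overlapping matches in BST2 share a GAAA.
BST2: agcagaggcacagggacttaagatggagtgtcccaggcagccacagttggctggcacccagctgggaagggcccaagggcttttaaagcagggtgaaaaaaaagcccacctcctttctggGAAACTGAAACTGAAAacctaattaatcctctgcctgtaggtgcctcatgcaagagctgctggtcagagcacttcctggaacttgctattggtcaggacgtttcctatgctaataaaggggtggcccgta
IFIT1: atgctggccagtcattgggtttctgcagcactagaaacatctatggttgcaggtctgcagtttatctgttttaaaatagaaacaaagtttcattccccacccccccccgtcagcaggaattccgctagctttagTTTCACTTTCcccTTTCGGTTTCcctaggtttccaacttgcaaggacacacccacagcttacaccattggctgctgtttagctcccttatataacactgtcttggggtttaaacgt
IFI6: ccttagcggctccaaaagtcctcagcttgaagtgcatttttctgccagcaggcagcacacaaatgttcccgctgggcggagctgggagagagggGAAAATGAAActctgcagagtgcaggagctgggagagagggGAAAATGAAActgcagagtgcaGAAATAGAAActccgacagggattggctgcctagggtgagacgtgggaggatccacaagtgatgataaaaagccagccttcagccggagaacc

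BST2, or tetherin, which holds budding viruses at the cell surface, read 8.29, 8.51 and 8.51 in spheroid xenografts, against 6.49, 6.52 and 6.51 in parental culture, and rose by 1.93 (SE 0.15, limma adjusted p = 0.00243). The 3 spheroid xenograft arrays were alike and so were the 3 parental cultures. As a description, BST2 averaged 8.82 in spheroid culture, above its 8.44 in spheroid xenografts, and 7.11 in parental xenografts. IFIT1, IFI6, ISG15, MX1 and IRF9 instead had lower means in spheroid culture than in spheroid xenografts. IFIT1, which binds foreign RNA caps, read 8.04, 6.89 and 7.22 in spheroid xenografts, against 5.65, 5.94 and 5.69 in parental culture, and rose by 1.63 (SE 0.29). IFI6, a mitochondrial protein that limits apoptosis, read 9.03, 8.53 and 8.65 in spheroid xenografts, against 7.04, 7.41 and 7.51 in parental culture, and rose by 1.41 (SE 0.21). The ubiquitin-like modifier ISG15 rose by 1.41 (SE 0.17), the antiviral GTPase MX1 by 1.41 (SE 0.26), and IRF9, a transcription factor that binds this element, by 1.35 (SE 0.27). ISG15 read 11.15, 10.75 and 11.03 in spheroid xenografts, against 9.58, 9.61 and 9.50 in parental culture, with no overlap of the groups.
In the MHC class I pathway 1 of 14 genes rose (7.14% against 2.87%), with a list median of 0.67. It was TAP1, the peptide transporter, which read 8.99, 8.92 and 8.97 in spheroid xenografts, against 7.93, 8.21 and 7.88 in parental culture, and rose by 0.95 (SE 0.16). Among 21 NF-kappaB targets and cytokines 2 rose (9.52% against 2.87%), with a list median of 0.20. CXCL1, a chemokine for neutrophils, read 8.33, 8.61 and 9.45 in spheroid xenografts, against 6.76, 5.58 and 6.39 in parental culture, and rose by 2.55 (SE 0.38). NFKBIA, the inhibitor of NF-kappaB, read 11.23, 11.16 and 11.32 in spheroid xenografts, against 9.30, 9.57 and 10.03 in parental culture, and rose by 1.61 (SE 0.21).
Of these 9 calls, 2, 1 and 1 were kept without spheroid xenograft replicates 1, 2 and 3 in turn, and 6, 9 and 2 without parental culture replicates 1, 2 and 3, with adjusted p-values of up to 0.17. Without parental culture replicate 2, 9 interferon, 8 MHC class I and 4 NF-kappaB genes were called higher, and 4 MHC class I genes were called higher with all 12 arrays, after quantile normalization again or after cyclic loess. Median centring ended the calls of IFIT1, MX1, IRF9 and TAP1, and IRF9 and NFKBIA lost theirs without _x_at and _s_at probe sets, TAP1 with the trended moderation and MX1 without both parental culture replicates 1 and 2.

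MT1X, MT2A, MT1H and MT1F, all metallothioneins, fell in spheroid xenografts. Metallothioneins are small cysteine-rich proteins that bind zinc and copper, and the metal-sensing factor MTF1 induces them through response elements with a short shared core. Of 13 metallothioneins, zinc transporters and regulators, 4 fell (30.8%, against 1.4% of all genes called lower), and the list median was -0.56. MT1X read 10.46, 10.20 and 10.44 in spheroid xenografts, against 11.70, 11.83 and 12.05 in parental culture, and fell by 1.49 (SE 0.17, limma adjusted p = 0.00855). MT2A read 11.22, 10.97 and 11.39 in spheroid xenografts, against 12.31, 12.52 and 12.66 in parental culture, and fell by 1.30 (SE 0.18). MT1H read 9.57, 9.42 and 9.67 in spheroid xenografts, against 10.79, 10.55 and 11.02 in parental culture, and fell by 1.23 (SE 0.18), and MT1F fell by 1.08 (SE 0.18). The levels were even within each group, and the groups did not overlap. These genes are near-identical copies and their probe sets carry the suffix _x_at, so which copy fell is uncertain. The core was searched as TGCACNC and TGCGCNC on both strands. It is common, in 24.7% of 27305 promoters, and lies in 4 of the 8 members with a promoter, among them the 3 fallen genes that have one. Between 4 and 8 matches stand in each of these promoters, all on the plus strand of chromosome 16 in GRCh38.p14: MT1X at chr16:56682220-56682469 on the plus strand, MT2A at chr16:56608334-56608583 on the plus strand, and MT1H at chr16:56669564-56669813 on the plus strand. Matches are in capitals, 5′ to 3′.
MT1X: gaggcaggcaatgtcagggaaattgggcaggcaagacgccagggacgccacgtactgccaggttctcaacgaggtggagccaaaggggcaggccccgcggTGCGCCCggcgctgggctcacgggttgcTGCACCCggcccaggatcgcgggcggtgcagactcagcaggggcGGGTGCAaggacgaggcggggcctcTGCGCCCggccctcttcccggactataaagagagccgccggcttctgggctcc
MT2A: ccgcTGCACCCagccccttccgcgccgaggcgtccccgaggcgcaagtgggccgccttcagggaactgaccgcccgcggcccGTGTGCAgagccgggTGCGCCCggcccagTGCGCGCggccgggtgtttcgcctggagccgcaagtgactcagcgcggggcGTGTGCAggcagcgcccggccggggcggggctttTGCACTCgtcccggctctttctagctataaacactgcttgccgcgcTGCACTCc
MT1H: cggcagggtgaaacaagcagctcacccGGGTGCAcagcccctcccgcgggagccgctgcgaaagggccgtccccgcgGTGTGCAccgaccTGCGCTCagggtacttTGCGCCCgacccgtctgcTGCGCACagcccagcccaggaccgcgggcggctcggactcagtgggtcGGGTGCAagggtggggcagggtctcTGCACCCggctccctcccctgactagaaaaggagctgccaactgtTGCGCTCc
Of the 4 calls, 1, 0 and 0 were kept without spheroid xenograft replicates 1, 2 and 3 in turn, and 4, 4 and 1 without parental culture replicates 1, 2 and 3, with adjusted p-values of up to 0.156. Without _x_at and _s_at probe sets the 4 genes were not represented, and their calls could not be tested there. Without parental culture replicate 2, 4 members of the list were called higher and 5 lower.

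Among genes of the response to low oxygen, 3 rose and 2 fell of 27 measured (18.5% against 2.87%), with a list median of 0.52. When oxygen falls, HIF proteins are stabilised and bind sites with the core ACGTG. Of the members called, ADM, or adrenomedullin, a peptide that widens vessels, read 11.42, 11.81 and 11.85 in spheroid xenografts, against 9.22, 9.12 and 9.56 in parental culture, and rose by 2.40 (SE 0.20, limma adjusted p = 0.00291). ANKRD37 rose by 3.18 (SE 0.30) as above, and HILPDA, a protein of lipid droplets, by 0.88 (SE 0.18). As a description, ADM averaged 11.71 and HILPDA 9.62 in spheroid culture, no lower than in spheroid xenografts. ANKRD37 averaged 7.73 in spheroid culture, below its 8.78 in spheroid xenografts. The 2 members that fell were the secreted glycoproteins STC1, or stanniocalcin-1, by 1.73 (SE 0.31), and STC2 by 1.40 (SE 0.19). STC1 read 7.51, 7.24 and 7.90 in spheroid xenografts, against 8.82, 9.90 and 9.12 in parental culture, opposite to ADM on the same arrays. The core ACGTG is present in 18.7% of all promoters and in 10 of 21 members with a promoter. Of the 2 risen members with a promoter in the table, it lies in that of ANKRD37. The ANKRD37 promoter, at chr4:185396591-185396840 on the plus strand, GRCh38.p14, holds 3 matches in capitals, of which 2 overlap as the palindrome CACGTG.
ANKRD37: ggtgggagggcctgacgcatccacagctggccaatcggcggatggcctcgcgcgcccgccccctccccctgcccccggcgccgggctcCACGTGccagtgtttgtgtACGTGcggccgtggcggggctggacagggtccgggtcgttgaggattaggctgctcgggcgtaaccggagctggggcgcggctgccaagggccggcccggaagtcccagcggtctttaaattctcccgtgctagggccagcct
Of 16 genes of glycolysis and lactate formation 2 rose (12.5% against 2.87%), with a list median of 0.51. ALDOC, an aldolase, read 8.66, 8.83 and 9.02 in spheroid xenografts, against 7.41, 6.57 and 7.44 in parental culture, and rose by 1.70 (SE 0.26). Its mean was 8.85 in spheroid culture and 7.16 in parental xenografts. PKM, pyruvate kinase, read 13.02, 13.06 and 13.15 in spheroid xenografts, against 12.43, 11.99 and 12.25 in parental culture, and rose by 0.85 (SE 0.17, limma adjusted p = 0.0463). Of these 7 calls, 2, 2 and 2 were kept without spheroid xenograft replicates 1, 2 and 3 in turn, and 6, 7 and 2 without parental culture replicates 1, 2 and 3, with adjusted p-values of up to 0.223. Without parental culture replicate 2, 9 hypoxia genes and 4 glycolysis genes were called higher, and 8 and 6 hypoxia genes after quantile normalization again and cyclic loess. The calls of PKM and HILPDA ended with median centring, the filter on dim probe sets and the trended moderation, that of PKM also after quantile normalization again or cyclic loess, that of HILPDA with the mean of probe sets, that of STC1 with all 12 arrays or median centring, and that of STC2 without _x_at and _s_at probe sets.

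**Figure D4:**
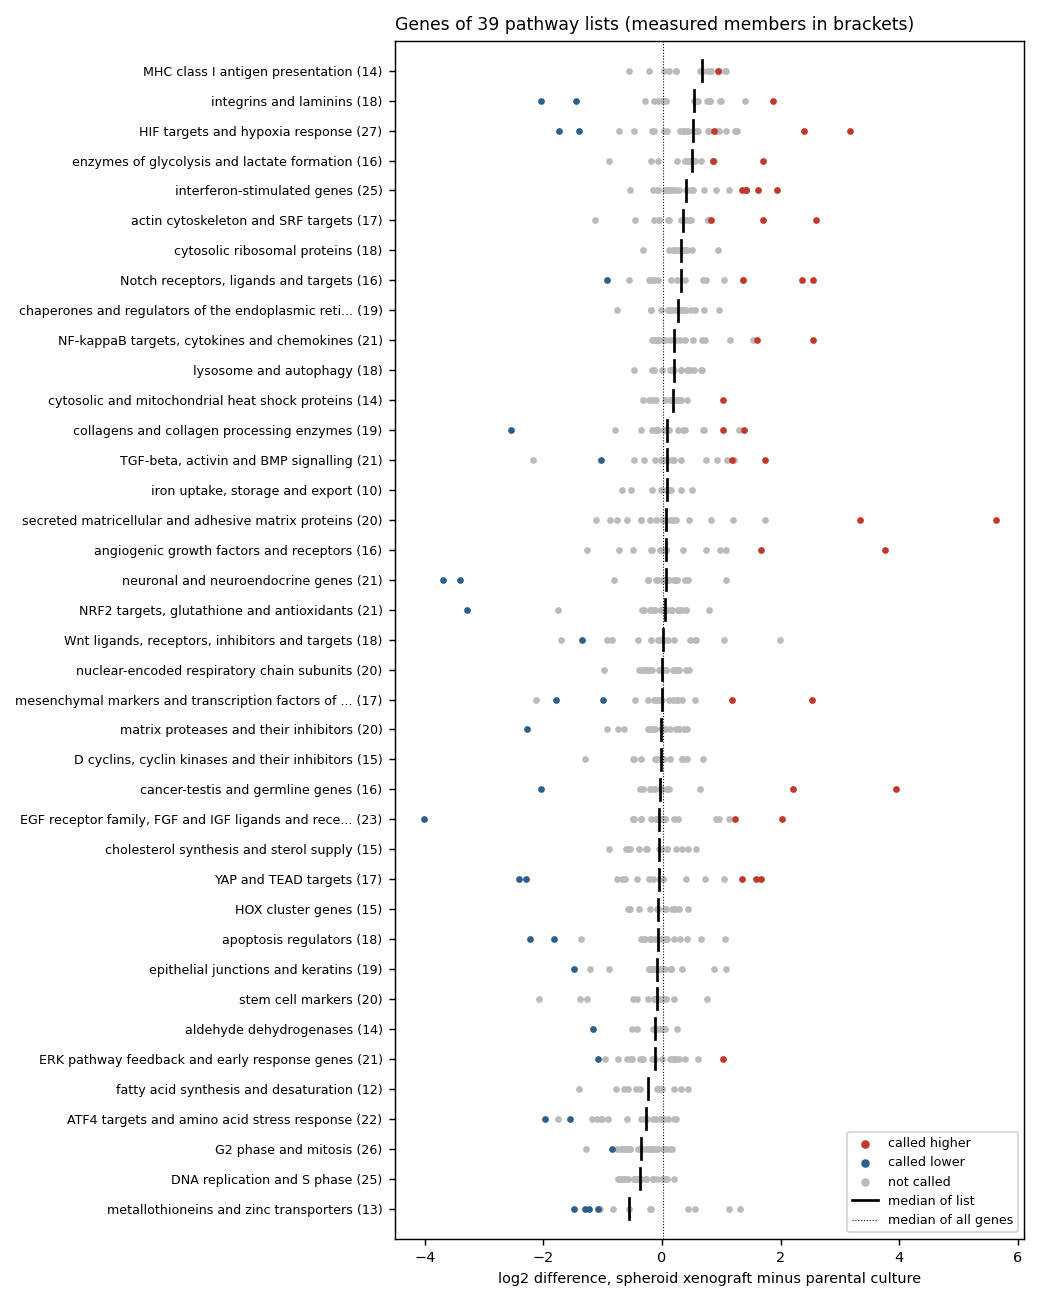
Log2 differences of the measured members of each of the 39 pathway lists, spheroid xenograft minus parental culture; each point is a gene, called genes are coloured, the tick is the list's median and the dotted line is the median of all genes. Interferon-stimulated genes have 6 members called higher and a median of 0.41, and metallothioneins and zinc transporters have 4 called lower and a median of -0.56.

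Matrix and adhesion genes held calls in both directions. Of 20 secreted matrix proteins, MFAP5 and EDIL3 rose (10% against 2.87%), both already among the 14 largest increases above. Of 19 collagens and their processing enzymes, COL3A1, a fibrillar collagen, and PLOD1, a lysyl hydroxylase, rose, and LOXL2, which crosslinks collagen, fell (15.8% against 2.87%). LOXL2 read 6.46, 6.77 and 8.02 in spheroid xenografts, against 9.92, 9.61 and 9.38 in parental culture, and fell by 2.55 (SE 0.39, limma adjusted p = 0.0181), while its other 3 probe sets differed by -0.62, 0.15 and 0.04. COL3A1 read 6.41, 6.14 and 7.27 in spheroid xenografts, against 5.28, 5.27 and 5.14 in parental culture, and rose by 1.38 (SE 0.29, limma adjusted p = 0.0491). Its other probe sets differed by only 0.014 to 0.65. PLOD1 rose by 1.03 (SE 0.21). Of 18 integrins and laminins 3 were called (16.7% against 2.87%), and the list median was 0.55. LAMB3, a chain of the laminin of epithelial basement membranes, read 10.04, 10.15 and 9.89 in spheroid xenografts, against 7.67, 8.55 and 8.24 in parental culture, and rose by 1.87 (SE 0.24). LAMB1, a chain of other laminins, read 5.07, 5.11 and 4.76 in spheroid xenografts, against 6.76, 7.68 and 6.62 in parental culture, and fell by 2.04 (SE 0.29). These chains of the same family moved in opposite directions. ITGA3, a laminin receptor subunit, fell by 1.45 (SE 0.26). Of 20 matrix proteases and inhibitors 1 fell (5% against 2.87%), SERPINE2, an inhibitor of thrombin and plasminogen activators, by 2.28 (SE 0.33).
Mesenchymal genes also had calls both ways, with 2 of 17 risen and 2 fallen (23.5% against 2.87%). S100A4, a calcium-binding protein of motile cells, read 9.56, 8.59 and 9.36 in spheroid xenografts, against 7.20, 6.35 and 6.38 in parental culture, and rose by 2.53 (SE 0.32, limma adjusted p = 0.0114). TWIST1, a factor that drives the switch from epithelial to mesenchymal state, rose by 1.17 (SE 0.23). PRRX1, another such factor, read 5.88, 5.46 and 5.97 in spheroid xenografts, against 7.44, 8.15 and 7.09 in parental culture, and fell by 1.79 (SE 0.29), and CDH2, or N-cadherin, fell by 0.99 (SE 0.16). A second CDH2 probe set averaged 5.12 in spheroid xenografts and 8.23 in parental culture, a difference of -3.11, so the size of that fall depends on the probe set. Of 19 epithelial genes 1 was called (5.26% against 2.87%). It was KRT8, a keratin of simple epithelia, which read 7.70, 7.19 and 7.52 in spheroid xenografts, against 8.60, 9.17 and 9.11 in parental culture, and fell by 1.49 (SE 0.22).
Of these 14 calls, 1, 3 and 2 were kept without spheroid xenograft replicates 1, 2 and 3 in turn, and 11, 14 and 2 without parental culture replicates 1, 2 and 3, with adjusted p-values of up to 0.207. Without parental culture replicate 2, 6 integrin and laminin genes and 4 collagen genes were called higher, and the fit without replicate 1 called 2 matrix protease genes and 2 epithelial genes lower. COL3A1 lost its call under 6 other alternatives and PLOD1 under 6, and median centring also ended those of EDIL3, ITGA3, TWIST1 and PRRX1. TWIST1 was not called with all 12 arrays, nor PRRX1 with the mean of probe sets.

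Ligands and targets of the Notch pathway, in which a membrane ligand on one cell activates a receptor on its neighbour, had 3 members risen and 1 fallen of 16 (25% against 2.87%), with a list median of 0.32. JAG1, a ligand, read 11.20, 11.92 and 12.60 in spheroid xenografts, against 8.90, 10.10 and 9.09 in parental culture, and rose by 2.54 (SE 0.42, limma adjusted p = 0.0242). The targets HES4 and NRARP rose by 2.36 (SE 0.32) and 1.36 (SE 0.25). DLL3, a ligand that blocks signalling within the cell, read 7.97, 8.10 and 7.93 in spheroid xenografts, against 8.91, 9.06 and 8.79 in parental culture, and fell by 0.92 (SE 0.16). Its other probe sets differed by -0.16, -0.076 and -0.17.
Among 17 genes of the YAP and TEAD pathway, which responds to adhesion and tension, 3 rose and 2 fell (29.4% against 2.87%). CCN2, or connective tissue growth factor, read 11.91, 12.37 and 12.26 in spheroid xenografts, against 10.06, 10.64 and 11.08 in parental culture, and rose by 1.59 (SE 0.27). LATS2, a kinase that restrains YAP, rose by 1.67 (SE 0.24), and the phosphatase PTPN14 by 1.34 (SE 0.19). AMOTL1, a junctional scaffold, read 5.79, 5.60 and 5.77 in spheroid xenografts, against 7.74, 8.80 and 7.83 in parental culture, and fell by 2.41 (SE 0.29), and the secreted protein FSTL1 fell by 2.30 (SE 0.39). The other FSTL1 probe sets differed by -0.16 and -0.0084. Of 17 actin and SRF genes 3 rose (17.6% against 2.87%). CALD1, or caldesmon, read 11.56, 12.09 and 12.32 in spheroid xenografts, against 8.73, 9.77 and 9.70 in parental culture, and rose by 2.59 (SE 0.32). MYL9, a myosin light chain, rose by 1.70 (SE 0.19), and the LIM protein FHL2 by 0.82 (SE 0.15).
In the TGF-beta pathway 2 of 21 genes rose and 1 fell (14.3% against 2.87%). The receptor TGFBR2 rose by 1.18 (SE 0.20) and the inhibitor of differentiation ID2 by 1.74 (SE 0.20), while the ligand TGFB1 fell by 1.03 (SE 0.20). TGFB1 read 9.18, 8.98 and 9.36 in spheroid xenografts, against 9.90, 10.27 and 10.44 in parental culture. Of 18 Wnt genes 1 fell (5.56% against 2.87%), the receptor FZD2, by 1.35 (SE 0.27).
Of these 16 calls, 8, 1 and 0 were kept without spheroid xenograft replicates 1, 2 and 3 in turn, and 14, 16 and 4 without parental culture replicates 1, 2 and 3, with adjusted p-values of up to 0.223. With replicate 2 of parental culture left out, 6 Notch genes were called higher, as were 4 TGF-beta and 3 Wnt genes, and 3 TGF-beta and 2 Wnt genes were called lower. No Notch gene was called without spheroid xenograft replicate 2 or 3. Median centring ended the calls of JAG1, NRARP, FSTL1, FHL2, TGFBR2, TGFB1 and FZD2, the mean of probe sets those of DLL3, FSTL1, TGFB1 and FZD2, and the trended moderation those of DLL3, FHL2 and TGFB1. TGFB1, FZD2 and MYL9 lost theirs without _x_at and _s_at probe sets, ID2 and FZD2 with all 12 arrays, FHL2 after quantile normalization again or cyclic loess, and NRARP without both parental culture replicates 1 and 2.

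**Figure D5:**
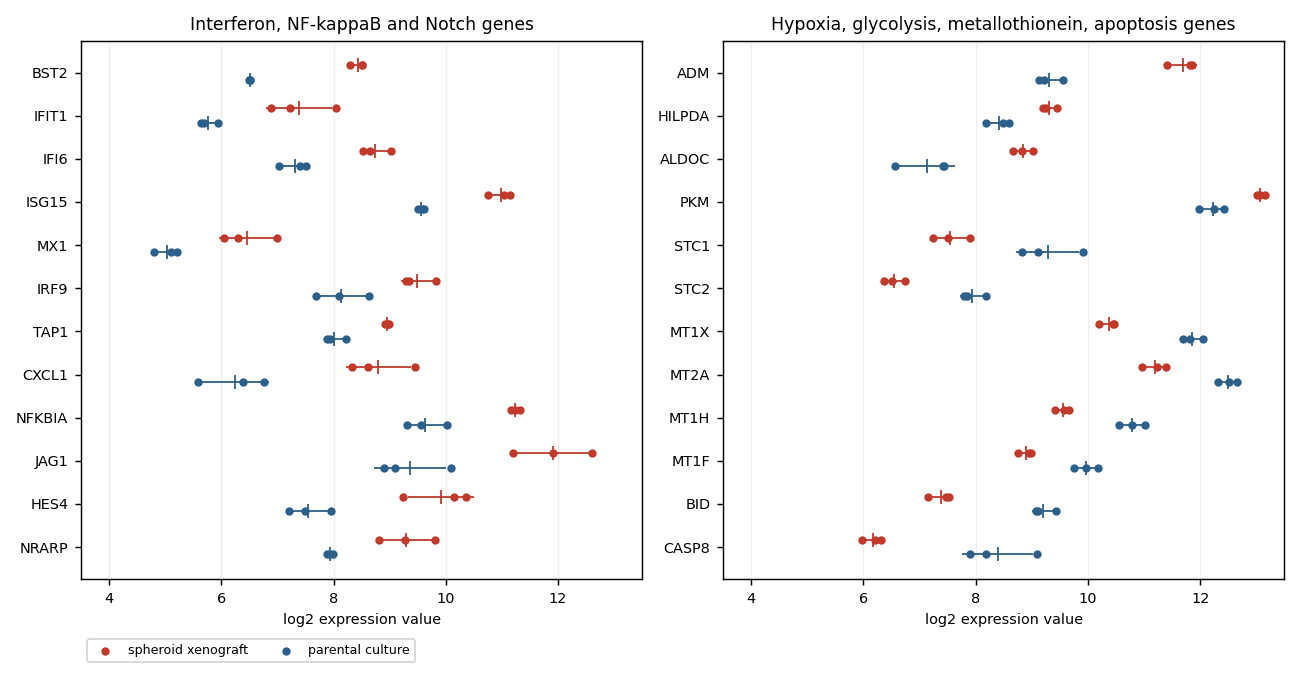
Log2 values on each of the 6 arrays for 24 called members of the pathway lists, spheroid xenograft above parental culture; dots are arrays, ticks are group means and bars are SD over 3 arrays. BST2 averages 8.44 in spheroid xenografts and 6.50 in parental culture, and MT1X averages 10.37 in spheroid xenografts and 11.86 in parental culture.

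In the EGF, FGF and IGF families 2 of 23 genes rose and 1 fell (13% against 2.87%). The receptors called were higher and the ligand called was lower. IGF1R, the receptor of insulin-like growth factors, read 9.43, 9.77 and 10.18 in spheroid xenografts, against 7.43, 8.29 and 7.57 in parental culture, and rose by 2.03 (SE 0.29, limma adjusted p = 0.0147). EGFR, the receptor for TGFA, read 10.46, 10.56 and 10.78 in spheroid xenografts, against 9.04, 9.56 and 9.53 in parental culture, and rose by 1.22 (SE 0.20). Of 9 EGFR probe sets 7 went up, by 0.025 to 1.22, while 2 differed by -1.59 (SE 1.08) and -1.23 (SE 1.01). TGFA fell as given above. Of 21 feedback and early response genes of the ERK pathway 1 rose and 1 fell (9.52% against 2.87%). Both encode AP-1 subunits. FOSL1 read 10.36, 10.36 and 10.45 in spheroid xenografts, against 11.18, 11.49 and 11.72 in parental culture, and fell by 1.08 (SE 0.18), and JUNB rose by 1.03 (SE 0.17). Of 16 angiogenic factors EFNB2 and SEMA3C, a secreted guidance protein, rose (12.5% against 2.87%). SEMA3C read 11.18, 11.38 and 11.47 in spheroid xenografts, against 9.50, 10.31 and 9.21 in parental culture, and rose by 1.67 (SE 0.28). Of these 7 calls, 3, 2 and 2 were kept without spheroid xenograft replicates 1, 2 and 3 in turn, and 6, 7 and 2 without parental culture replicates 1, 2 and 3, with adjusted p-values of up to 0.161. Leaving out parental culture replicate 2, 5 growth factor and 5 angiogenic genes were called higher. EGFR lost its call with the mean of its probe sets or without _x_at and _s_at probe sets, and SEMA3C under median centring. FOSL1 and JUNB lost theirs when the replicate number was added to the fit as a block.

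Genes of the cell cycle had few calls and medians below 0. Of 26 genes of G2 phase and mitosis 1 fell (3.85% against 2.87%), with a list median of -0.35. It was CENPA, the histone of centromeres, which read 8.43, 8.07 and 8.24 in spheroid xenografts, against 8.95, 9.22 and 9.10 in parental culture, and fell by 0.84 (SE 0.17, limma adjusted p = 0.0468). Of 25 replication genes limma called 0, with 0 higher and 8 lower at an unadjusted p under 0.05 and a list median of -0.38. CDC6, which loads the replicative helicase, differed by -0.74 (SE 0.19, limma adjusted p = 0.0925). MKI67, a marker of cycling cells, differed by -0.12 (SE 0.20). Without parental culture replicate 1, 4 replication and 6 mitosis genes were called lower. After quantile normalization again these counts were 5 and 9, and after cyclic loess 6 and 9. The D cyclins and cyclin kinase inhibitors had 0 calls of 15, with 1 higher and 3 lower at an unadjusted p under 0.05.
Of 18 apoptosis regulators 2 fell (11.1% against 2.87%). BID, which links death receptors to mitochondria, read 7.52, 7.16 and 7.48 in spheroid xenografts, against 9.43, 9.12 and 9.07 in parental culture, and fell by 1.82 (SE 0.18, limma adjusted p = 0.00606). CASP8, the caspase that cleaves BID, read 5.98, 6.21 and 6.32 in spheroid xenografts, against 8.19, 9.10 and 7.89 in parental culture, and fell by 2.22 (SE 0.31). The call of CASP8 rests on 1 of 3 probe sets, and the others differed by -0.86 and 0.17.
Of 22 genes of the amino acid stress response 2 fell (9.09% against 2.87%), CHAC1, which degrades glutathione, by 1.56 (SE 0.28), and the lipoprotein receptor VLDLR by 1.97 (SE 0.40). CHAC1 read 7.56, 7.51 and 7.34 in spheroid xenografts, against 8.81, 9.68 and 8.60 in parental culture. Without parental culture replicate 1, 7 genes of this list were called lower. Of 14 heat shock proteins 1 rose (7.14% against 2.87%), the small chaperone HSPB1, by 1.03 (SE 0.21). Of these 6 calls, 1, 0 and 1 were kept without spheroid xenograft replicates 1, 2 and 3 in turn, and 5, 6 and 2 without parental culture replicates 1, 2 and 3, with adjusted p-values of up to 0.259. Median centring ended the calls of CENPA, CHAC1, VLDLR and HSPB1, the trended moderation those of CENPA and HSPB1, the filter on dim probe sets that of CENPA, and the mean of probe sets that of CASP8.

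Markers used for cancer stem cells gave 0 calls in limma among 20 measured, with 1 higher and 4 lower at an unadjusted p under 0.05. CD44, a hyaluronan receptor, read 9.99, 9.42 and 9.96 in spheroid xenografts, against 10.50, 11.27 and 11.40 in parental culture, and differed by -1.27 (SE 0.28, limma adjusted p = 0.0616), which missed the threshold although the groups did not overlap. The drug efflux pump ABCB1 read 4.27, 4.20 and 4.05 in spheroid xenografts, against 5.05, 6.30 and 5.29 in parental culture, and differed by -1.38 (SE 0.31, limma adjusted p = 0.0682), again short of the threshold. CD44 was called lower under 8 of 17 alternatives and ABCB1 under 7 of 16, and 2 stem cell markers were called lower without parental culture replicate 1 and 2 without replicate 2. PROM1 and ALDH1A1 lay below the lower quartile of all probe sets on every array, at differences of -0.012 (SE 0.18) and -0.018 (SE 0.16). SOX2 differed by -0.50 (SE 0.17), NANOG by -0.13 (SE 0.18) and ABCG2 by -0.11 (SE 0.17), none of them called. Another SOX2 probe set averaged 4.84 in spheroid xenografts and 6.14 in parental culture, a difference of -1.30 (SE 0.37). The remaining SOX2 probe sets differed by -0.41 and -0.40, so the size of the SOX2 difference depends on the probe set. Of 14 aldehyde dehydrogenases 1 fell (7.14% against 2.87%), ALDH2, the mitochondrial enzyme of ethanol metabolism, by 1.17 (SE 0.24, limma adjusted p = 0.0485).
Of 16 cancer-testis and germline genes 2 rose and 1 fell (18.8% against 2.87%). CTCFL, the testis paralogue of the insulator protein CTCF, read 10.81, 10.75 and 11.18 in spheroid xenografts, against 9.10, 9.29 and 7.73 in parental culture, and rose by 2.20 (SE 0.39). TKTL1 rose as given above. GAGE1, of a multicopy family whose members the probes may not separate, fell by 2.04 (SE 0.39). Of 21 neuronal genes 2 fell (9.52% against 2.87%), TUBB2B and CNKSR2, and of 21 NRF2 targets 1 fell (4.76% against 2.87%), MGST1. TUBB2B, CNKSR2 and MGST1 are already among the 14 largest decreases above. Of these 7 calls, 4, 2 and 3 were kept without spheroid xenograft replicates 1, 2 and 3 in turn, and 6, 7 and 4 without parental culture replicates 1, 2 and 3, with adjusted p-values of up to 0.197. ALDH2, CTCFL, GAGE1 and MGST1 were not called under median centring, nor ALDH2 and MGST1 without _x_at and _s_at probe sets. ALDH2 also lost its call after cyclic loess and without both parental culture replicates 1 and 2.

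In 8 further lists limma called 0 genes, and the counts in brackets are those higher and lower at an unadjusted p under 0.05. They were 15 genes of cholesterol synthesis (1 and 4), 12 of fatty acid synthesis (0 and 3), 19 of the endoplasmic reticulum (1 and 1) and 18 of the lysosome (3 and 1). The others were 20 of the respiratory chain (1 and 1), 18 ribosomal proteins (0 and 0), 15 HOX genes (0 and 2) and 10 genes of iron handling (0 and 1). In the fit without parental culture replicate 2, 4 lysosome genes and 2 genes of the endoplasmic reticulum were called higher, and array weights called 6 lysosome genes higher. The ribosomal protein median was 0.33 but -0.0018 without parental culture replicate 1.

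The identity of the line was checked on 9 genes, of which 1 was called, KRT8, lower as given above. KRT18, the partner keratin of KRT8, read 11.62, 11.17 and 11.24 in spheroid xenografts, against 11.77, 12.91 and 13.01 in parental culture, and differed by -1.22 (SE 0.33, limma adjusted p = 0.113), which missed the threshold although the groups did not overlap. VIM, or vimentin, an intermediate filament of mesenchymal cells, read 14.51, 14.47 and 14.52 in spheroid xenografts, against 13.55, 14.49 and 14.42 in parental culture. CDH1 and EPCAM, of epithelial junctions, differed by -0.014 (SE 0.18) and -0.14 (SE 0.16). CDH1 read 4.68, 4.48 and 4.39 in spheroid xenografts, against 4.62, 4.30 and 4.66 in parental culture, near the lower quartile of all probe sets on each array. The lung lineage genes NKX2-1, SFTPB, SFTPC and NAPSA differed by -0.16 to 0.24 and none was called.
Markers of host cell types were examined beside the matrix, interferon and globin genes. The human array reads host RNA only as far as it binds human probes. Summed over the list on the linear scale, 16 fibroblast markers gave 1395 to 1488 in spheroid xenografts, against 1162 to 1438 in parental culture, and 1 of them was called, COL3A1, with 3 higher and 1 lower at an unadjusted p under 0.05. FAP, a protease of activated fibroblasts, read 5.92, 5.96 and 5.87 in spheroid xenografts, against 5.35, 4.70 and 5.16 in parental culture, and differed by 0.84 (SE 0.20, limma adjusted p = 0.0757), short of the threshold with no overlap of the groups. The 14 endothelial markers gave 1201 to 1357 in spheroid xenografts, against 991 to 1355 in parental culture, with 1 called, ENG, or endoglin, which rose by 0.82 (SE 0.17, limma adjusted p = 0.0498) and lost its call under 7 alternatives besides single arrays. The 14 myeloid markers gave 703 to 838 in spheroid xenografts, against 564 to 843 in parental culture, and the 11 lymphocyte markers 552 to 681 in spheroid xenografts, against 519 to 741 in parental culture. In limma 0 genes of the last 2 lists were called, and 0 had an unadjusted p under 0.05. The 7 erythroid markers gave 3197 to 4202 in spheroid xenografts, against 575 to 833 in parental culture, but without HBE1 the other 6 gave 628 to 809 in spheroid xenografts, against 540 to 799 in parental culture. HBB, the adult globin, differed by 0.55 (SE 0.28, limma adjusted p = 0.468). Muscle markers gave 818 to 968 in spheroid xenografts, against 720 to 1072 in parental culture, adipocyte markers 718 to 843 in spheroid xenografts, against 714 to 911 in parental culture, and keratinocyte markers 789 to 916 in spheroid xenografts, against 1007 to 1512 in parental culture, with 0 called in each and 0, 1 and 1 with an unadjusted p under 0.05. At the lower quartile of all probe sets or below on all 3 spheroid xenografts were 2 fibroblast, 3 endothelial, 2 myeloid and 0 erythroid markers. RMA values have no true 0, so absence cannot be read from these levels. The part of other cell types in the results was not tested. Of the calls of COL3A1, ENG, HBE1 and KRT8, 1 was kept without any 1 spheroid xenograft array or without parental culture replicate 3, 3 without parental culture replicate 1, and 4 without replicate 2, with adjusted p-values of up to 0.247.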

How the data were processed

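The authors deposited log2 values per probe set for Affymetrix HG-U133 Plus 2.0 arrays, made with RMA in the affy package, per the submitters' processing notes. No version is named there, nor whether all 12 arrays were normalised as one set. RMA is meant to make array distributions alike, so a global shift in RNA cannot be read from these values. The deposited distributions still differed. Over the 12 arrays, medians spanned 5.85 to 6.03 and interquartile ranges 2.82 to 3.44. Whether the arrays were normalised jointly was not tested. Labelling used 2 µg of total RNA, per the labels' protocols.

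Of 54675 probe sets (62 controls), 41091 carried a single gene symbol and were used, and 41037 of these symbols were looked up by gene number in a GRCh38.p14 gene table. The probe set with the highest average over the 12 arrays stood for each of 19775 genes. limma 3.58.1 in R 4.3.3 (lmFit and eBayes, 4 residual degrees of freedom, median SE 0.21) was fitted to the 6 arrays, two-sided and Benjamini-Hochberg adjusted over all genes, after tests on simulated data. The number of arrays limits the precision, and an exact permutation test of 3 against 3 cannot go below p = 0.1.

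Of 867 genes in 48 lists, 789 were represented. The groups, lists and members were chosen with earlier results of these data known. Named genes were the 14 largest and 14 smallest differences among called genes whose groups did not overlap (symbols such as LOC, FAM, LINC or orf left out), up to 3 called members a list or the one with the lowest p, 2 per marker list, and a fixed set of stem cell and proliferation genes. CCN2, CDH2, DLL3, HILPDA, IRF9, ISG15, MT1F, MX1, PTPN14, STC2, ABCB1 and the line's identity genes other than VIM were named after their values were seen. Promoters are RefSeq's. Alternatives changed the arrays, normalization, probe sets, dim filter, moderation, array weights and pairing.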

Additional observations from a re-analysis of the deposited data

How the results depend on the processing

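The number of called genes (568, 291 higher and 277 lower) rested more on the arrays used than on the test. It was 1083 (555 higher, 528 lower) with all 12 arrays in the fit, 1318 (599, 719) after quantile normalization again, 1117 (457, 660) after cyclic loess and 292 (138, 154) after median centring. Cyclic loess lowered the share of higher calls to 40.9% from 51.2%. Array weights, which gave parental culture replicates 1 and 2 weights of 0.34 and 0.18, gave 4209 (2361, 1848). With 1 array left out, calls ranged from 39 to 2261, higher calls from 22 to 1666 and lower calls from 17 to 595. Leaving out both parental culture replicates 1 and 2, chosen after seeing the data, gave 1501 (885, 616). The mean of probe sets (552), no _x_at or _s_at probe sets (395), a mean of at least 6 (552) and trended robust moderation (564) stayed within 1.5 times for the total. CASP8 turned to 0.17 without _x_at and _s_at probe sets. Nothing in the labels says that equal replicate numbers mark a shared culture, animal or day, and whether they do was not tested. The correlations of deviations from the group means were 0.26, -0.39 and -0.56 for same-numbered samples. The highest was 0.64, between spheroid xenograft replicate 3 and parental culture replicate 2, the arrays with the widest interquartile ranges in the comparison. The fit with the replicate block called 508 (228 higher, 280 lower), 410 of them shared with the main fit. Among named genes, the block ended the calls of TAP1, IRF9, MT1F, PKM, HILPDA, PLOD1, TWIST1, CDH2 and DLL3. It also ended those of FHL2, TGFB1, FOSL1, JUNB, CENPA, HSPB1, ALDH2 and ENG. Of 90 named called genes, 20 were called with any 1 array left out. The cause of these shifts was not tested. Dim probe sets and 3 arrays a group limit what could be called.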
